A study of Mus musculus with 4 samples.

Results

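A set of 38 genes for cyclins, cell cycle kinases and their regulators, and for the copying of DNA, was followed in mouse embryonic stem cells (ESCs) supplemented with lactate. The members were chosen by gene symbol and found in the read counts by their Ensembl identifier, among 55335 genes. All 38 were among the 18661 genes with enough reads to be tested, with between 147 and 15544 reads per library. The RNA came from the mouse ESC line AB2.2. In both groups the cells grew on a feeder layer of mouse embryonic fibroblasts, in serum medium with leukemia inhibitory factor, the GSK3 inhibitor CHIR99021 and the MEK inhibitor PD0325901. The 2 control libraries received nothing further, and the 2 lactate libraries came from cells that were given lactate at 50 mM for 24 h. The question asked of the genes here was whether their RNA differed between these groups. The labels do not say whether the 2 libraries of a group came from separate cultures, so the p-values below measure the spread between these libraries, which may be technical. The sources used here name no step that removed the feeder cells from the RNA.

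A cell passes through G1, copies its DNA in S phase, and goes through G2 to mitosis. D-type cyclins with Cdk4 or Cdk6 and then E-type cyclins with Cdk2 phosphorylate the retinoblastoma protein Rb1, which frees E2F factors to switch on the genes for DNA replication. Cyclin B with Cdk1 then drives mitosis. ESCs divide fast, with a short G1, and hold many of these genes at high levels throughout the cycle.

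The libraries held 18067562 and 19077885 reads on genes in the control group and 18542554 and 18948861 in the lactate group. Mitochondrial genes took 5.48% (control) and 5.72% (lactate) of these reads in replicate 1, and 2.43% and 2.82% in replicate 2, so this share differed by replicate number more than by treatment. The 12 pluripotency markers were detected in every library. Their log2 fold changes, lactate over control, ran from -0.54 to 0.56, with a median of 0.01. At an unadjusted p under 0.05 by edgeR, 2 were lower and 3 higher, against 11.4% and 11.7% of all genes tested. All 16 feeder fibroblast markers were detected too, and none was at 0. Their summed level was 562 and 801 CPM (reads scaled to the size of the library, with the TMM factors of edgeR) in the control libraries and 569 and 645 CPM in the lactate libraries, which overlap. Of 9 primitive endoderm markers, 7 had enough reads to be tested. The summed level of the 9 was 200 and 237 CPM in control and 302 and 314 CPM in lactate. All 7 had estimates above 0, with a median log2 fold change of 0.67. Both lactate libraries were higher in 6 of the 7 by CPM, against 27.0% of all genes. At an unadjusted p under 0.05 by edgeR 3 were higher, against 11.7%, and 0 lower. Pdgfra is in both the feeder and the primitive endoderm list. The part of feeder cells and of primitive endoderm cells in the results below was not tested.

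Most cell cycle genes were at a somewhat lower level in the lactate libraries, and none passed the thresholds of the study with edgeR, while 1 did with DESeq2. By CPM, both lactate libraries lay below both control libraries in 26 of the 38 members, against 25.9% of all genes tested. They lay above both in 1 member, against 27.0% of all genes. The other 11 members overlapped. The order depended on the unit for some genes. By TPM (the level per transcript length within a library), Mcm3, Mcm4, Cdt1, Cdc25a and Ccnb1 overlapped, and Rb1 and Cdc25c were higher in both lactate libraries. The log2 fold change, lactate over control, was below 0 in 30 members, against 49.0% of all genes. The median over the members was -0.30, which is 81.1% of the control level, and the median over all genes tested was 0.01. In bulk RNA, fewer cells in a phase and less RNA per cell cannot be told apart.

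By the quasi-likelihood test of edgeR, 0 of the 38 members passed the study's thresholds, an adjusted p-value below 0.05 and a difference above 2-fold, against 0.900% of all genes tested, and 0 passed the adjusted p-value alone, against 0.991%. At an unadjusted p under 0.05, 17 members were lower with lactate and 0 were higher, against 11.4% and 11.7% of all genes. Below an adjusted p-value of 0.10, 4 members were lower, against 3.89% of all genes. DESeq2, the tool of the study, called 1 member, Aurkb, at both thresholds, against 2.33% of the genes it tested, and gave 4 members an adjusted p-value under 0.05 on the lower side, against 3.07%, and 0 on the higher side, against 2.14%. These 4 members were Ccnd1, Pcna, Plk1 and Aurkb by both tools. Over the 15 alternative settings without a replicate term the adjusted p-value ran from 0.000247 to 0.243 for Aurkb, from 0.00554 to 0.276 for Ccnd1, from 0.0145 to 0.295 for Pcna and from 0.00885 to 0.243 for Plk1. The upper ends of these 4 ranges came from limma on log2(FPKM + 1), a fit that gave 0 of 20019 genes an adjusted p-value under 0.05. The counts depend on single libraries. Without control replicate 1, control replicate 2, lactate replicate 1 and lactate replicate 2, in that order, 11, 6, 9 and 11 members were lower at an unadjusted p under 0.05, against 8.37%, 7.13%, 9.04% and 11.1% of the genes tested in each case, and 1, 0, 0 and 1 were higher.

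**Figure D1:**
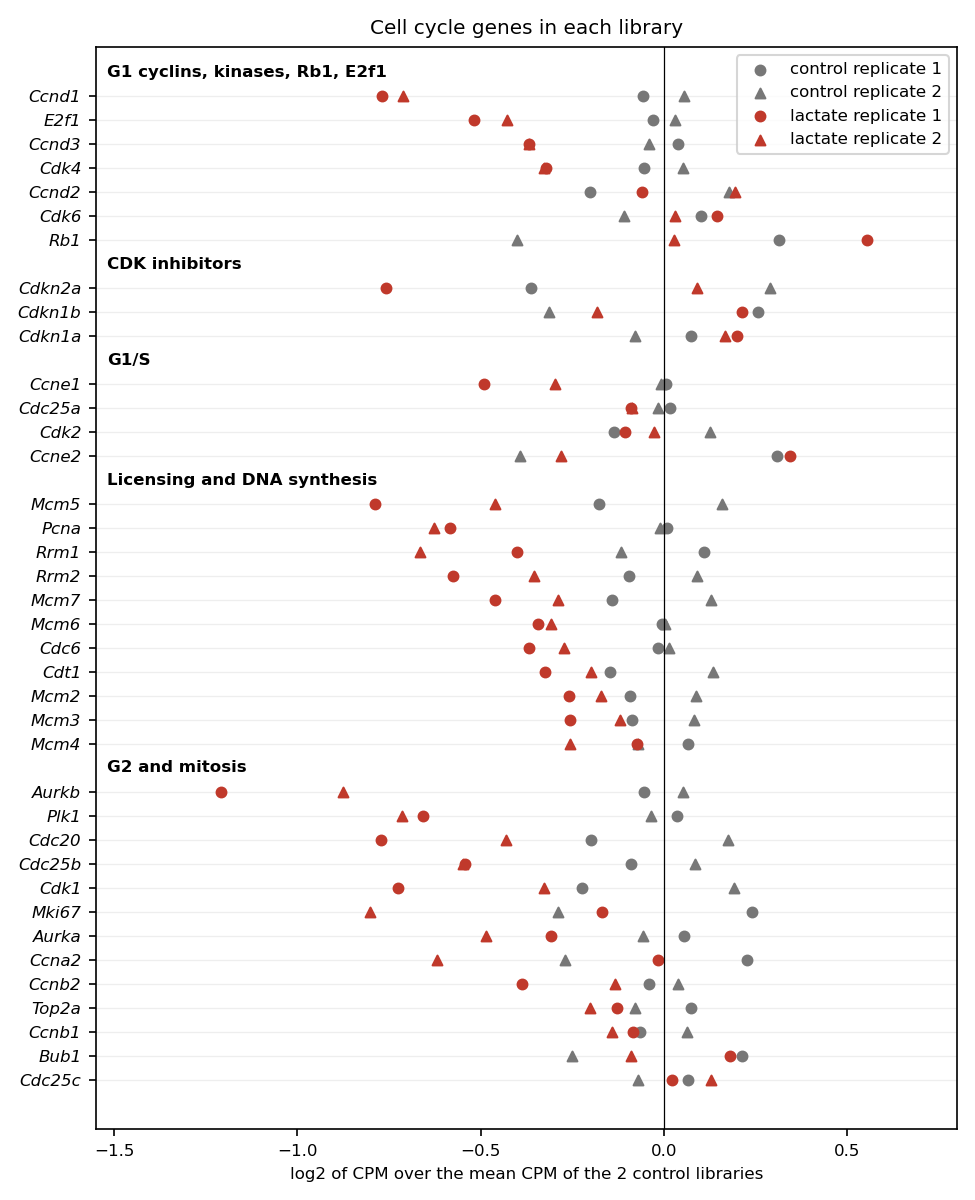
Each of the 38 genes has 4 points, 1 per library, on the log2 ratio of its CPM to the mean CPM of the 2 control libraries (x axis), grouped by role. Grey points are control and red points lactate, circles are replicate 1 and triangles replicate 2. All 11 licensing and DNA synthesis genes have both red points to the left of both grey points, as do 26 of the 38 genes in all, and Cdkn1a has both to the right. Over all genes tested, 25.9% have both lactate libraries below both controls and 27.0% above.

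Most licensing and mitotic genes lay lower in the lactate libraries, so the sequence before the start of a few of them is shown. E2F factors bind sites in the promoters of G1/S genes. Promoters of mitotic genes often carry a cell cycle homology region (CHR), bound by the DREAM and MuvB complexes, next to CCAAT boxes, bound by NF-Y. The words searched were TTTCCCGC, TTTCGCGC, TTTGCCGC and TTTGGCGC for E2F, TTTGAA and TTCGAA for the CHR, and CCAAT, each on both strands, in windows from 250 bases before to 50 bases after the RefSeq start (GRCm38.p6). A gene with several windows counted once. The 4 stretches below end at the base before the start, read 5′ to 3′ on the strand of the gene, and show in capitals the E2F words, the CHR words and the CCAAT boxes. Mcm5 and Mcm6 show the E2F words of the licensing group, where words on opposite strands overlap. Cdk1 and Cdc20 show CHR words and CCAAT boxes of the mitotic group. The CHR word of Cdc20 and the first of Cdk1 lie between CCAAT boxes, and the second of Cdk1 lies past the last box.
Mcm5, chr8:75109349-75109508, plus strand: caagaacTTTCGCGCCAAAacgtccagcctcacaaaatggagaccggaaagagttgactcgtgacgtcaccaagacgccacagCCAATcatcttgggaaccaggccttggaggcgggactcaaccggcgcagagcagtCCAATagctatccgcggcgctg
Mcm6, chr1:128359706-128359825, minus strand: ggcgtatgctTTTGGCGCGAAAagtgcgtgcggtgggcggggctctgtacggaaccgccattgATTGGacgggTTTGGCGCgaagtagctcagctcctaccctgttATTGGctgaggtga
Cdk1, chr10:69352913-69353052, minus strand: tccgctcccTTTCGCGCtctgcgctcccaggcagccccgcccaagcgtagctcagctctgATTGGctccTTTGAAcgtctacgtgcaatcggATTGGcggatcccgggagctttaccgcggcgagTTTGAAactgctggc
Cdc20, chr4:118437344-118437403, minus strand: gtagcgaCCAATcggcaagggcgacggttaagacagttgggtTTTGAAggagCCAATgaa

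A window was matched for 30 of the 38 members, all except Aurkb, Ccna2, Ccnd1, Ccnd2, Ccne2, Cdc25c, Mcm4 and Rb1. An E2F word was found in 6 of 10 licensing and DNA synthesis genes (60%), against 2.60% of the 27025 genes with a window. These were Cdc6, Cdt1, Mcm3, Mcm5, Mcm6 and Mcm7. Of 3 G1/S members with a window, 2 had an E2F word, Cdc25a and Cdk2 (66.7%). Of 13 further genes for E2F factors, DP partners and pocket proteins, 6 had an E2F word and 6 a CHR word. A CHR word was found in 9 of 10 G2 and mitosis genes (90%), all except Ccnb1, against 21.7% of all genes. A CCAAT box was found in all 10, against 41.1%. Such a box was also found in 8 of 10 licensing and DNA synthesis genes (80%) and in 23 of the 30 members (76.7%). Only 1 G2 and mitosis gene, Cdk1, had an E2F word, and its CHR words began 71 and 15 bases before the start. In Cdc20 the CHR began 18 bases before the start. Genes with a word were not lower than genes without it in all 4 groups compared, and no difference was tested. Among licensing and DNA synthesis genes the median log2 fold change was -0.32 in the 6 with an E2F word and -0.49 in the 4 without. Among 46 further G2 and mitosis genes it was -0.22 in the 31 with a CHR word and -0.27 in the 15 without. Among 39 further G1/S and replication genes it was -0.33 in the 12 with an E2F word and -0.08 in the 27 without, and among G2 and mitosis members -0.45 in the 9 with a CHR word against -0.11 for Ccnb1, the 1 without. A match of letters is a description, not evidence of binding.

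**Figure D2:**
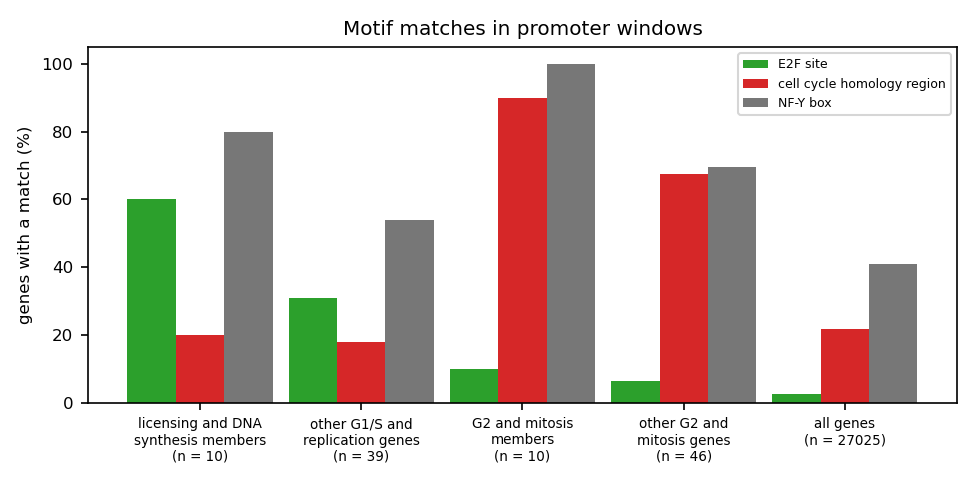
Bars give the percentage of genes with at least 1 match to an E2F word (green), a CHR word (red) or a CCAAT box (grey) in the window around the start, for 2 groups of members, the 2 wider lists of the same phases and all 27025 genes with a window. E2F words are in 60% of the licensing and DNA synthesis genes and CHR words in 90% of the G2 and mitosis genes. Other groups are not drawn, among them the G1/S members, where 2 of 3 have an E2F word (66.7%).

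In G1, the levels of Ccnd1, Ccnd3, Cdk4 and E2f1 were lower in both lactate libraries, and those of Ccnd2, Cdk6 and Rb1 overlapped by CPM. Ccnd1 (ENSMUSG00000070348.5, chr7:144929931-144939925, GRCm38) encodes cyclin D1, which couples growth factor signals to Cdk4 and Cdk6. It was at 98.6 and 106 CPM in the control libraries and at 60.1 and 62.6 CPM in the lactate libraries. The groups did not overlap, and the log2 fold change was -0.74 (SE 0.13), with an adjusted p-value of 0.054 by edgeR and 0.0089 by DESeq2. On the opposite strand, 23.4% of its exonic bases also belong to LTO1, and the strand setting of the counts is not given in the sources used here. E2f1, an activator of replication genes, was at 71.1 and 74.0 CPM in control and 50.6 and 53.9 CPM in lactate, a log2 fold change of -0.47 (SE 0.13, edgeR adjusted p-value 0.11). Both lactate values were below both control values.

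Per length, cyclin D3 RNA was the most abundant of the D-type cyclins. Ccnd3 held 85.3% to 88.8% of the summed TPM (the level per transcript length within a library) of the 3 D-type cyclins in the 4 libraries, at 337 and 322 TPM in control and 271 and 272 TPM in lactate. Ccnd1 was at 28.7 to 49.9 TPM and Ccnd2 at 4.26 to 6.24 TPM, so the order of the 3 levels was the same in every library. Ccnd3 had a log2 fold change of -0.37 (SE 0.13, edgeR adjusted p-value 0.17), with both lactate libraries lower. Cdk4, a kinase partner of D-type cyclins, was at 386 and 378 TPM in control and 301 and 279 TPM in lactate, against 38.1 to 46.6 TPM for its relative Cdk6. The log2 fold change was -0.32 (SE 0.13, edgeR adjusted p-value 0.21) for Cdk4 and 0.09 (SE 0.14) for Cdk6. In Cdk4, 19.7% of the exonic bases are shared with Tspan31 on the opposite strand.

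Rb1, the pocket protein that holds E2F factors in check, was at 33.8 and 20.5 CPM in control and 39.9 and 27.7 CPM in lactate. By TPM it was at 10.86 and 6.58 in control and 13.64 and 11.85 in lactate, with both lactate libraries higher. By CPM the replicates of 1 group differed more than the groups, and the log2 fold change of 0.31 had an SE of 0.29. Ccnd2 (0.07, SE 0.19) had no clear direction either.

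Among the inhibitors of cyclin-dependent kinases, Cdkn1a was the only member of all 38 with both lactate libraries above both controls by CPM. By TPM the same held for Cdkn1a, Rb1 and Cdc25c. Cdkn1a encodes p21, a target of p53. It was at 143 and 129 CPM in control and 156 and 152 CPM in lactate, a log2 fold change of 0.18 (SE 0.13, edgeR adjusted p-value 0.45). By TPM it made up 69.0% to 74.8% of the 3 inhibitors. Cdkn1b, which encodes p27, was at 52.6 and 35.4 CPM in control and 51.1 and 38.8 CPM in lactate, and the groups overlapped. Cdkn2a, a locus that encodes both p16 and p19Arf, was at 10.4 and 16.3 CPM in control and 7.91 and 14.2 CPM in lactate, and its gene count cannot separate the products. Fibroblasts express Cdkn1a, Cdkn2a, Ccnd1 and Ccnd2 as well. The part of feeder cells in these values was not tested. By CPM, replicate 2 was above replicate 1 in both groups for Cdkn2a, Ccnd1 and Ccnd2, the order seen in 17 of the 38 members. For Cdkn1a, replicate 2 was the lower library in both groups by CPM and the higher one in both by TPM.

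At the G1/S boundary, only cyclin E1 among the 4 members passed an unadjusted p of 0.05, on the lower side, against 11.4% of all genes. Ccne1 was at 148 and 147 CPM in control and 105 and 120 CPM in lactate, a log2 fold change of -0.39 (SE 0.14, edgeR adjusted p-value 0.16). Ccne1 held 83.6% to 93.8% of the summed TPM of the E-type cyclins. Ccne2 was at 25.3 and 15.6 CPM in control and 26.0 and 16.8 CPM in lactate, so replicate 1 was the higher library in both groups. Cdk2, the kinase that E-type cyclins activate, had a log2 fold change of -0.07 (SE 0.15), and Cdc25a, a phosphatase that removes the inhibitory phosphates from it, one of -0.09 (SE 0.12). The groups overlapped for Cdk2. For Cdc25a they did not, with 139 and 136 CPM in control and 129 in both lactate libraries.

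**Figure D3:**
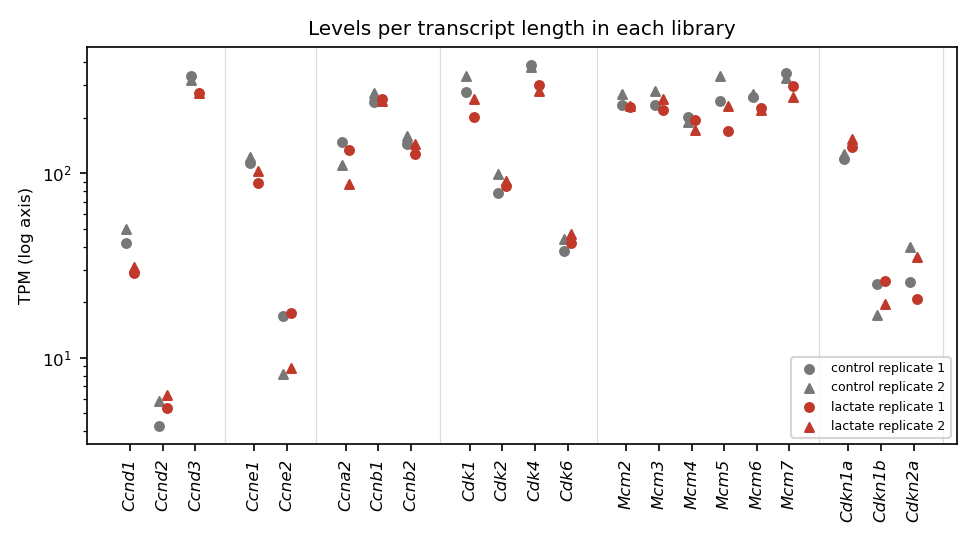
TPM (y axis, log scale) in each library for the D-, E-, A- and B-type cyclins, the cyclin-dependent kinases, the MCM subunits and the kinase inhibitors. Grey points are control and red points lactate, circles replicate 1 and triangles replicate 2. Ccnd3 sits above Ccnd1 and Ccnd2, Ccne1 above Ccne2, and Cdk4 above Cdk6 in every library, and the MCM subunits all lie between 170 and 348 TPM.

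In the origin licensing and DNA synthesis group all 11 genes had both lactate libraries below both controls by CPM, against 25.9% of all genes. By TPM, Mcm3, Mcm4 and Cdt1 overlapped. The log2 fold changes of the 11 genes ran from -0.61 to -0.16 with a median of -0.33. At an unadjusted p under 0.05 by edgeR 6 were lower, against 11.4% of all genes. Their summed level was 2410 and 2611 TPM in control and 2027 and 2052 TPM in lactate. Pcna (ENSMUSG00000027342.14, chr2:132249162-132253314) encodes the sliding clamp that holds DNA polymerases on the template. It was at 337 and 333 CPM in control and 224 and 217 CPM in lactate. The replicates lay close together and the groups far apart, with a log2 fold change of -0.61 (SE 0.13) and an adjusted p-value of 0.069 by edgeR and 0.032 by DESeq2.

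Mcm2 to Mcm7 encode the 6 subunits of the ring-shaped replicative helicase. Mcm5 (ENSMUSG00000005410.6, chr8:75109569-75128439) was at 479 and 604 CPM in control and 314 and 394 CPM in lactate, a log2 fold change of -0.61 (SE 0.19, edgeR adjusted p-value 0.13). Its replicates differed as well, and replicate 2 was the higher library in both groups. The other subunits had log2 fold changes of -0.37 (SE 0.16) for Mcm7, -0.33 (SE 0.13) for Mcm6, -0.22 (SE 0.14) for Mcm2, -0.19 (SE 0.15) for Mcm3 and -0.16 (SE 0.15) for Mcm4. In Mcm4 the gap between the groups was small, at 434 CPM in control replicate 2 and 433 CPM in lactate replicate 1. Per length, Mcm7 was the highest subunit in 3 of the 4 libraries and Mcm5 in control replicate 2, and the highest-to-lowest ratio within the ring was 1.73 and 1.79 in control and 1.74 and 1.52 in lactate. Mcm5 was at 0.961 and 1.26 times the mean TPM of the other 5 subunits in control and 0.729 and 1.02 times in lactate, and these ratios overlap. Mcm5 and Mcm6 are the genes with the overlapping E2F words printed above, and Mcm7 also hosts the microRNA genes Mir25 and Mir93.

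Cdc6 and Cdt1 load the MCM ring onto origins. Cdc6 was at 98.8 and 101 CPM in control and 77.4 and 82.7 CPM in lactate, a log2 fold change of -0.32 (SE 0.13), and Cdt1 had one of -0.26 (SE 0.15). The members for ribonucleotide reductase, the enzyme that makes deoxyribonucleotides, were lower in both lactate libraries. Rrm1, the large subunit, was at 348 and 297 CPM in control and 244 and 204 CPM in lactate (log2 fold change -0.53, SE 0.16). Rrm2, the small subunit, was at 339 and 385 CPM in control and 243 and 283 CPM in lactate (log2 fold change -0.46, SE 0.15). Replicate 1 was the higher library for Rrm1 and replicate 2 for Rrm2, in both groups.

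**Figure D4:**
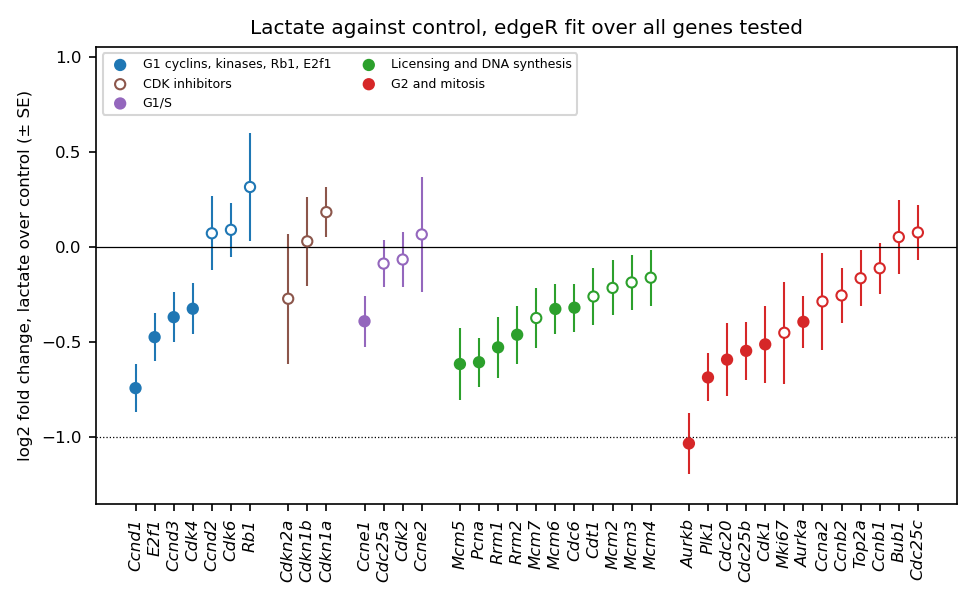
Log2 fold change, lactate over control, of the 38 genes with the SE of the edgeR fit, ordered within each role. Filled points have an unadjusted p under 0.05 and open points do not, and the dotted line marks a 2-fold lower level. The values run from -1.03 for Aurkb to 0.31 for Rb1, and every licensing and DNA synthesis gene is below 0.

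The G2 and mitosis genes ranged more widely, from the lowest value of all members to slightly above 0. Of 13 genes, 9 had both lactate libraries below both controls by CPM, against 25.9% of all genes tested, and 4 overlapped. At an unadjusted p under 0.05 by edgeR 6 were lower, against 11.4% of all genes. Ccnb1, among the 9, overlapped by TPM. The median log2 fold change was -0.39. Aurkb (ENSMUSG00000020897.12, chr11:69045647-69051664) encodes Aurora kinase B, which corrects the attachment of chromosomes to the spindle. It was at 68.4 and 73.6 CPM in control and 30.7 and 38.7 CPM in lactate. Aurkb was thus at 48.9% of its control level, with a log2 fold change of -1.03 (SE 0.16) and an adjusted p-value of 0.052 by edgeR and 3.1e-04 by DESeq2. Its relative Aurka, which acts at the spindle poles, was at 138 and 128 CPM in control and 108 and 95.1 CPM in lactate, a log2 fold change of -0.39 (SE 0.14, edgeR adjusted p-value 0.16). Neither kinase overlapped between the groups, and the difference between the 2 kinases was not tested.

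Plk1 (ENSMUSG00000030867.7, chr7:122159439-122169873) encodes Polo-like kinase 1, which acts in mitotic entry and spindle assembly. It was at 133 and 127 CPM in control and 82.4 and 79.1 CPM in lactate. The log2 fold change was -0.69 (SE 0.13), with an adjusted p-value of 0.058 by edgeR and 0.016 by DESeq2. Cdc20, which activates the anaphase-promoting complex and carries the CHR printed above, was at 159 and 206 CPM in control and 107 and 136 CPM in lactate (log2 fold change -0.59, SE 0.19). Cdc25b, a phosphatase that activates Cdk1, was at 26.4 and 29.8 CPM in control and 19.3 and 19.2 CPM in lactate (log2 fold change -0.55, SE 0.15). In all 3 genes both lactate libraries were the lower ones.

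The estimates for the mitotic kinase Cdk1 and for its cyclins were spread, and the differences between them were not tested. Cdk1 was at 119 and 159 CPM in control and 84.3 and 111 CPM in lactate, a log2 fold change of -0.51 (SE 0.20, edgeR adjusted p-value 0.20). Replicate 2 was higher in both groups, and control replicate 1 lay only slightly above lactate replicate 2. Ccnb1, the main mitotic cyclin, was at 342 and 375 CPM in control and 338 and 325 CPM in lactate, a log2 fold change of -0.11 (SE 0.13). Ccnb2 had one of -0.25 (SE 0.14), and Ccna2, the cyclin of S phase and G2, one of -0.29 (SE 0.25), with libraries that overlapped. Per length, Ccnb1 was the highest of these 3 cyclins in every library, at 244 to 274 TPM.

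Mki67 and Top2a, often used as marks of dividing cells, did not pass an unadjusted p of 0.05. Mki67, the gene of the Ki-67 antigen, was at 540 and 374 CPM in control and 407 and 262 CPM in lactate. Control replicate 2 lay below lactate replicate 1, so the groups overlapped, and the log2 fold change was -0.45 (SE 0.27). Top2a, the topoisomerase that untangles chromosomes, was at 899 and 808 CPM in control and 781 and 742 CPM in lactate (log2 fold change -0.16, SE 0.15). Bub1, a kinase of the spindle checkpoint, had a log2 fold change of 0.05 (SE 0.20), and Cdc25c, a further activator of Cdk1, one of 0.08 (SE 0.14). Both overlapped between the groups by CPM, and by TPM both lactate libraries were higher for Cdc25c.

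Further genes of the same processes were read from 6 wider lists. Among 48 other G1/S and replication genes, 13 were lower and 2 higher at an unadjusted p under 0.05 by edgeR, against the 11.4% and 11.7% of all genes given above, and the median log2 fold change was -0.13. The smallest p-values belonged to Gmnn and Orc1. Gmnn encodes geminin, the inhibitor of Cdt1, and was at 80.5 and 78.5 CPM in control and 42.1 and 55.0 CPM in lactate (log2 fold change -0.71, SE 0.16, edgeR adjusted p-value 0.081). Orc1, a subunit of the origin recognition complex, was at 119 and 135 CPM in control and 84.9 and 87.7 CPM in lactate (log2 fold change -0.56, SE 0.13, edgeR adjusted p-value 0.086). Both genes were lower in both lactate libraries.

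Among 57 other G2 and mitosis genes, 18 were lower and 1 was higher at an unadjusted p under 0.05 by edgeR, against 11.4% and 11.7% of all genes. Their median log2 fold change was -0.22. Gtse1, a microtubule-associated protein of G2 and S phase, was at 234 and 217 CPM in control and 131 and 120 CPM in lactate (log2 fold change -0.84, SE 0.13, edgeR adjusted p-value 0.052). Incenp, the scaffold that activates Aurora kinase B, was at 231 and 186 CPM in control and 118 and 114 CPM in lactate (log2 fold change -0.84, SE 0.15, edgeR adjusted p-value 0.058). Aurkb and Incenp thus both lay at lower levels in the lactate libraries. None of the genes in these 2 lists had an edgeR adjusted p-value under 0.05, against 0.991% of all genes tested. DESeq2 gave 1 of the 48 and 5 of the 57 one on the lower side, against 3.07% of the genes it tested. It gave 0 of either list one on the higher side, against 2.14%.

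The next lists hold genes for proteins that degrade or restrain cell cycle factors. Among 19 genes of the anaphase-promoting complex and the SCF ubiquitin ligases, 4 were lower and 0 higher at an unadjusted p under 0.05 by edgeR. Over all genes the shares were 11.4% and 11.7%. The median log2 fold change of the 19 was -0.16. Fzr1, the activator of the anaphase-promoting complex in G1, had a log2 fold change of -0.49 (SE 0.13), and Skp1, the SCF adaptor, one of -0.39 (SE 0.13). Of 5 other inhibitors of cyclin-dependent kinases, 1 was lower at that threshold, Cdkn2c, against 11.4% of all genes. Cdkn2c was at 1.79 and 2.003 CPM in control and 0.807 and 1.17 CPM in lactate. Cdkn1c was at 1.33 and 1.00 CPM in control and 1.67 in both lactate libraries, so both genes were at low levels. Of 16 other genes for E2F factors, their DP partners, pocket proteins and the MuvB core, 0 passed an unadjusted p of 0.05 by edgeR in either direction and the median was 0.04. E2f2 (-0.36, SE 0.21) and Lin37 (-0.29, SE 0.19) had the smallest p-values among them, so E2f1 stood alone among the E2F genes in passing that threshold.

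Of 24 genes of the p53 pathway, 7 were lower and 5 higher at an unadjusted p under 0.05 by edgeR, against 11.4% and 11.7% of all genes. Their median log2 fold change was -0.10. Gadd45a, a stress-induced gene that restrains the cell cycle, was at 13.4 and 13.6 CPM in control and 26.3 and 31.6 CPM in lactate, a log2 fold change of 1.10 (SE 0.17) and an adjusted p-value of 0.051 by edgeR. Sesn2, a stress-induced inhibitor of mTORC1 signalling, was at 94.1 and 101 CPM in control and 156 and 170 CPM in lactate (log2 fold change 0.74, SE 0.13, edgeR adjusted p-value 0.057). Both genes were higher in both lactate libraries. DESeq2 called Gadd45a at both thresholds, against 2.33% of the genes it tested. It gave 2 genes of the list, Gadd45a and Sesn2, an adjusted p-value under 0.05 on the higher side, against 2.14%. On the lower side it gave 0, against 3.07%. Mdm2, a p53 target named here after its value was seen, had a log2 fold change of 0.01 (SE 0.17). Trp53 itself, also named after its value was seen, was at 286 and 281 CPM in control and 200.3 and 199 CPM in lactate (log2 fold change -0.51, SE 0.13, edgeR adjusted p-value 0.095).

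**Figure D5:**
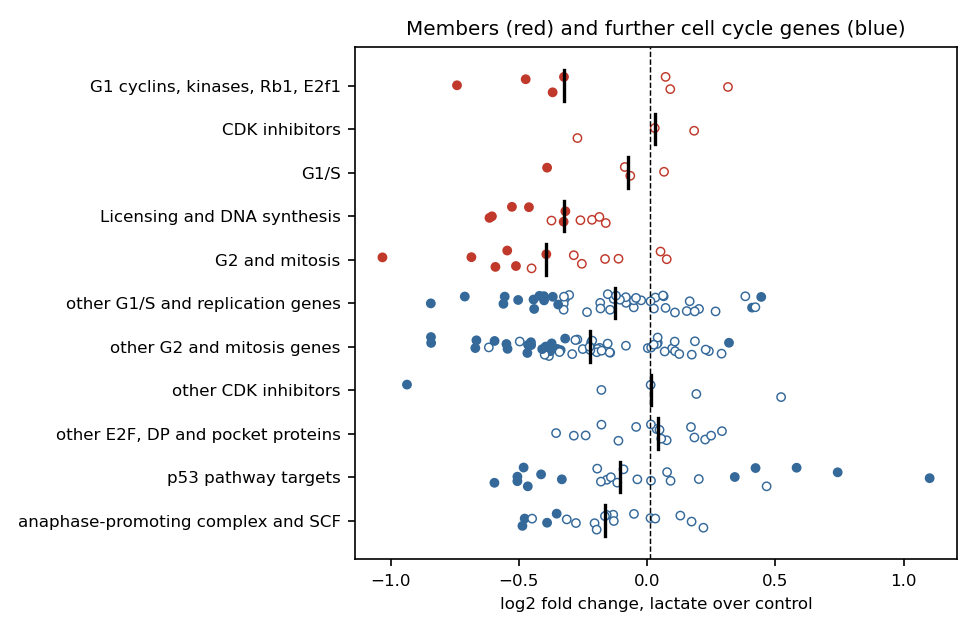
Each point is 1 gene at its log2 fold change, lactate over control (x axis), with the 38 members in red by role and the 6 wider lists in blue. Filled points have an unadjusted p under 0.05, black bars are medians and the dashed line is the median of all genes tested (0.01). The medians of the licensing (-0.33) and G2 and mitosis (-0.39) members lie further left than those of the wider lists of the same phases (-0.13 and -0.22), while the E2F and pocket protein list is centred near 0.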

How the data were processed

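RNA-seq libraries of the 2 control and 2 lactate samples were analysed. The authors trimmed reads with cutadapt 1.16, mapped them with STAR to mm10 (GENCODE release M23) and deposited raw read counts per gene, in a table that also counts transposable elements, together with expected counts, TPM and FPKM from RSEM for each library. The study's methods name the GeneCounts mode of STAR for reads in exons. The sources used here do not say how elements were counted in the combined table or which strand setting was used. The deposited counts were fitted over all genes in R 4.3.3 with edgeR 4.0.16 (filterByExpr, TMM, legacy quasi-likelihood test, Benjamini-Hochberg adjustment over 18661 genes). Calls needed an adjusted p-value below 0.05 and a difference above 2-fold, as in the study. The SE was derived as the absolute log2 fold change over the square root of F. CPM used the TMM factors, and TPM are as deposited. Alternatives were DESeq2 1.42.0, other scaling factors and filters, the deposited RSEM expected counts (rounded), limma 3.58.1 on log2(FPKM + 1) and log2(FPKM + 0.1), a replicate term, mitochondrial genes left out, and each library left out. DESeq2 and the replicate term without the fold threshold were added after seeing the data.

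All 38 members were described by role, with the 2 genes of smallest p-value from each wider list. A gene named for another reason is marked where it appears. The members and lists were chosen with earlier results of these data known. The 38 identifiers, with versions, are those of GENCODE release M21 on GRCm38, which gave positions. Promoters were matched by symbol to RefSeq windows on GRCm38.p6, and 1 list gene, Skp1, by a RefSeq synonym. Within a group, counts of the 2 libraries differed by more than sampling noise, and the common biological coefficient of variation was 15.9%. An exact two-sided permutation test of 2 against 2 libraries cannot give a p-value below 0.333, so none was used. The tests were tried on simulated data.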

Additional observations from a re-analysis of the deposited data

How the results depend on the processing

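The members called were 0 in the fit reported. They were also 0 with library totals alone (against 0.793% of all genes), upper-quartile factors (0.906%) and at least 10 counts in every library (0.730%). The RSEM expected counts (0.282%) and edgeR without its legacy form (0.975%) gave 0 as well. With FPKM on either log scale 0 of 20019 genes were called, so the 0 for the members there carries no information. The members called were 1, Aurkb in each case, with DESeq2 (against 2.33% of the genes it tested) and RLE factors (0.932%). The same 1 was called with no filter on low counts (2.45%) or mitochondrial genes left out (0.950%). With a library left out, the log2 fold change of Aurkb ran from -1.21 to -0.90. Without a fold threshold DESeq2 gave 4, an alternative chosen after seeing the data. The members lower at an unadjusted p under 0.05 were 17 in the fit reported, 11 with library totals alone (against 8.53% of all genes), 7 with log2(FPKM + 1) (5.61%) and 7 with log2(FPKM + 0.1) (5.67%), and 6 to 11 with a library left out, when 0 to 1 were higher. The median log2 fold change of -0.30 was -0.24 with library totals alone, -0.27 with upper-quartile factors, -0.35 with no filter, -0.23 with log2(FPKM + 1), -0.24 with log2(FPKM + 0.1), and -0.35 to -0.26 with a library left out. It was below 0 under every alternative run.

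The labels do not say that a replicate number marks a shared culture or day, so the libraries share only a number. Deviations of same-numbered libraries correlated at 0.56 over the genes tested. Replicate 2 was below replicate 1 in both groups in 15 members, above it in both in 17 and ordered differently in 6. With a replicate block, 1 member was called (Aurkb, against 6.19% of all genes), 27 were lower and 2 higher at an unadjusted p under 0.05 (against 25.5% and 25.7%), and without a fold threshold, chosen after seeing the data, 28 passed the adjusted p-value, or 73.7% against 44.5% of all genes tested. The adjusted p-value by edgeR with this block was 1.9e-09 for Aurkb, 1.8e-08 for Ccnd1, 1.1e-07 for Pcna and 3.2e-08 for Plk1.

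Of the 38 members, 9 changed sign under some alternative. Among these, Rb1 (0.31, SE 0.29) and Cdkn2a (-0.27, SE 0.34) had the estimates furthest from 0. Cdkn1b was at -0.015 with no filter and -0.021 with the RSEM expected counts, and Cdc25a at 0.044 with log2(FPKM + 1) and 0.045 with log2(FPKM + 0.1). With a library left out, the range was -0.12 to 0.27 for Ccnd2, -0.017 to 0.18 for Cdk6, -0.0062 to 0.70 for Rb1, -0.23 to 0.33 for Cdkn1b, -0.76 to 0.086 for Cdkn2a, -0.31 to 0.44 for Ccne2, -0.21 to 0.066 for Cdk2 and -0.17 to 0.28 for Bub1. The cause of these changes was not tested. The values with a library left out rest on a single library in the group that lost it, and the others on 2 libraries a group. Each member had at least 147 reads per library.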

Other observations

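In some protein complexes the subunits had unlike estimates in these libraries. The complexes below were chosen after their values were seen, and no difference between subunits was tested. In the chromosomal passenger complex, the log2 fold change, lactate over control, was -1.03 (SE 0.16) for Aurkb and -0.84 (SE 0.15) for Incenp, but -0.15 (SE 0.14) for Birc5 and 0.07 (SE 0.20) for Cdca8. Birc5, which encodes survivin, was at 109 and 117 CPM in control and 93.7 and 110 CPM in lactate, so its groups overlapped. In condensin I, which compacts mitotic chromosomes, Ncapd2 was at 397 and 414 CPM in control and 266 and 271 CPM in lactate (log2 fold change -0.59, SE 0.13, edgeR adjusted p-value 0.072). The other subunits had values of 0.04 for Smc2, 0.19 for Smc4, 0.11 for Ncapg and 0.03 for Ncaph.

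In the origin recognition complex Orc1 was lower in both lactate libraries, as given above. Orc6 was at 81.9 and 78.7 CPM in control and 113 and 100.1 CPM in lactate, higher in both lactate libraries (log2 fold change 0.41, SE 0.13, edgeR adjusted p-value 0.15). Orc2 (0.27), Orc4 (0.38) and Orc5 (0.17) also had estimates above 0, and Orc3 was at -0.02. The GINS complex joins the MCM ring in the active helicase. Log2 fold changes of its subunits were -0.44 (SE 0.13) for Gins4, -0.32 for Gins1, -0.14 for Gins2 and 0.44 (SE 0.18) for Gins3. Of the kinetochore genes Ndc80 and Nuf2, which encode partners in 1 dimer, both were higher in both lactate libraries, with log2 fold changes of 0.32 (SE 0.13) and 0.29 (SE 0.14).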
